A study of Mus musculus with 6 samples.

Results

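The nuclear genes for the subunits of the mitochondrial respiratory chain and ATP synthase were followed in mouse liver. They were taken by gene symbol, as the Nduf, Sdh, Uqcr, Cyc1, Cox4i to Cox8 and Atp5 rows of a count table. The group was proposed with earlier results of these data known. Left out were 14 names that contained -ps or ended in os or Rik. This gave 91 genes of 56674 rows, of which 42 belonged by name to complex I, 4 to complex II, 9 to complex III, 19 to complex IV and 17 to complex V. The livers came from male C57BL/6 mice, an inbred laboratory strain, at 71 weeks of age. In the control group (3 libraries) the mice ate normal chow, and in the PP-MP group (3 libraries) they ate chow with polypropylene microplastic, a plastic widely used in packaging. The titles and characteristics give these diets, whereas the protocol field for treatment has PS-MP in all 6 samples. Whether the 3 replicates of a diet came from different animals is not stated, so p-values here reflect only how much these samples vary, which may be technical. The series asks what long exposure to the particles does to gene expression in the liver.

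The respiratory chain passes electrons from NADH (complex I) and succinate (complex II) through coenzyme Q to complex III, on by cytochrome c to complex IV and then to oxygen, while ATP synthase (complex V) uses the proton gradient that this builds. Most subunits are encoded in the nucleus, a small core of complexes I, III, IV and V in the mitochondrial genome, and complex II wholly in the nucleus. Hepatocytes are rich in mitochondria, which supply the ATP for gluconeogenesis and urea synthesis.

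Total counts ran from 68357478 in control 2 to 112566641 in control 3. Values below are CPM, each gene's counts relative to the total of its library, after TMM scaling, which sets the libraries to a common level over most genes, and a log2 fold change is PP-MP relative to control. The subunit genes together took 0.982% to 1.28% of all counts in control libraries and 0.869% to 1.20% in PP-MP libraries. Ribosomal RNA of the small subunit (Rn18s-rs5) made up 1.15% to 11.2% of the counts in control, the most in control 2, and 0.655% to 0.750% with PP-MP. All 5 hepatocyte markers were expressed, at a summed 58668 to 70798 CPM in the controls and 64766 to 76770 CPM with PP-MP. PP-MP 1 stood apart in the acute phase genes of hepatocytes, which summed to 23853 CPM there, 6226 CPM with PP-MP 2, 5207 CPM with PP-MP 3 and 5306 to 6403 CPM in control, and all 8 had a higher fitted value. The 6 macrophage markers summed to 243, 153 and 73.2 CPM with PP-MP 1, 2 and 3 against 62.3 to 83.5 CPM in control. Neutrophil markers summed to 23.0, 4.96 and 3.03 CPM in the same libraries against 1.18 to 1.75 CPM in control.

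No subunit gene passed the test between the diets, and the fitted values leaned to one side. Of the 91 genes 84 had enough counts to be tested, and edgeR called 0 of them in either direction (smallest adjusted p = 0.26), against a background of 0.00547% of 18284 genes called lower and 0.00547% called higher. DESeq2 also called 0, against 1.29% of its genes called lower and 1.92% called higher. The fitted value was lower in PP-MP for 80 and higher for 4 of the 84. Among all genes tested 47.4% were lower and 52.6% higher. When library totals replaced the TMM factors, it was lower for 59 of the 84, against 4667 of all 18284 genes. The latter is the background for every count with library totals below. The median log2 fold change was −0.33, which is 0.794 of the control level, against 0.03 over all genes. In bulk tissue, fewer cells of a type and less RNA per cell cannot be told apart.

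The lower values were not shared evenly by the 3 PP-MP libraries. Relative to the control mean, the mean log2 CPM of the 84 genes was −0.64 for PP-MP 1, −0.31 for PP-MP 2 and −0.07 for PP-MP 3, and it was 0.01, −0.16 and 0.14 in control 1, 2 and 3. PP-MP 1 was below every control library for 80 of the 84 genes, PP-MP 2 for 63 and PP-MP 3 for 13. Over all genes tested the same shares were 29.8%, 23.8% and 24.0%. PP-MP 3 thus lay within the control range for most subunit genes, and PP-MP 1 below it. Among the 77 subunit genes at a mean of 10 CPM or more, PP-MP 1 was the lowest of the 6 libraries for 70, control 3 the highest for 41 and control 1 the highest for 21. Control 2 was the lowest control library for 58 of the 77. The shares of all genes with these orders are not given here, so the counts over the 77 have no background. The high acute phase and neutrophil sums given above were those of PP-MP 1, and their part in the lower values was not tested.

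**Figure D1:**
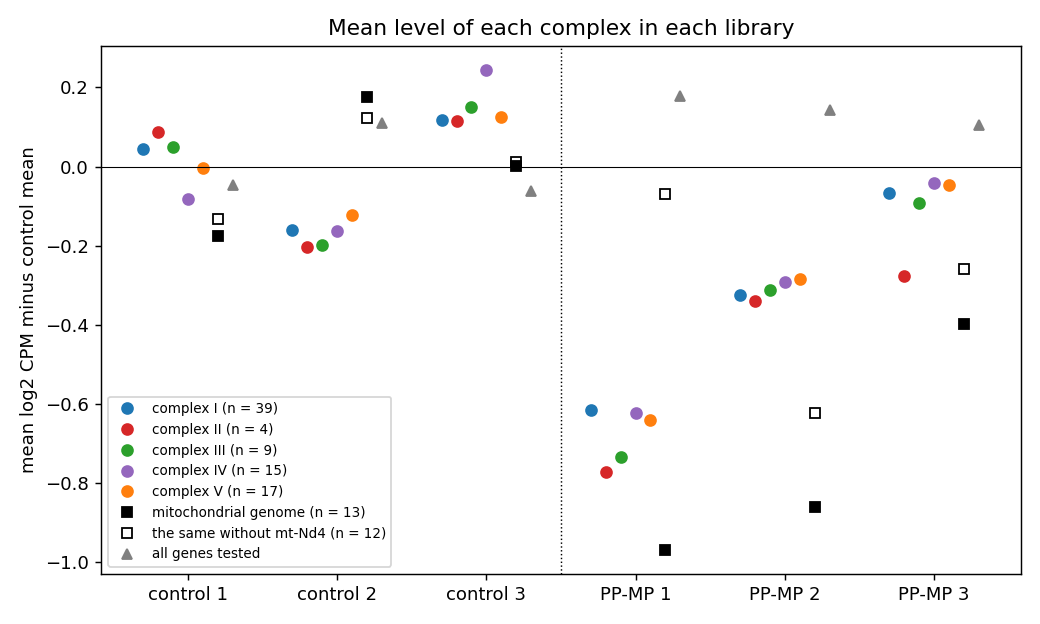
Mean log2 CPM of each complex in each of the 6 libraries, minus the mean of the 3 control libraries (vertical axis), with the 13 mRNAs of the mitochondrial genome (filled squares), the same without mt-Nd4 (open squares) and all genes tested (triangles) for comparison. The complexes sit between −0.77 and −0.62 in PP-MP 1, between −0.34 and −0.29 in PP-MP 2, and, except complex II at −0.28, between −0.09 and −0.04 in PP-MP 3. Values are TMM-scaled, and with library totals 59 of the 84 fitted values were lower, against 4667 of all 18284 genes.

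By unadjusted p under 0.05, edgeR gave 9 lower genes and 1 higher gene among the 84, which is 10.7% lower against a background of 5.81% of all genes lower and 8.05% higher. The 9 were Ndufa3, Ndufa10, Ndufs8, Ndufa12, Ndufv3, Sdha, Uqcrc1, Cox6c2 and Cox6b1, and the higher gene was Cox6b2. In 12 genes, 14.3% of those tested, every PP-MP library was below every control library, against 9.79% of all genes. Among these were Ndufa3, Ndufa10, Ndufa12, Ndufc2, Sdha, Sdhc, Uqcrc1, Uqcrc2, Cox6c2, Cox7a2l and Atp5b. Cox6b2 was the 1 gene higher without overlap, against 12.2% of all genes. With library totals 1 of the 84 genes (Cox6c2) was lower without overlap, against 2.59% of all genes.

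The count at an unadjusted p under 0.05 changed with the libraries used. The share of all genes at this level is given here only with all 6 libraries, so the other counts have no background. By adjusted p, edgeR called 2 of all genes with all 6 libraries and 92 without control 2. The count of subunit genes at an unadjusted p under 0.05 was 9 lower with all 6 libraries. It was 2, 29 and 0 without control 1, 2 and 3, and 1, 2 and 30 without PP-MP 1, 2 and 3. The number lower without overlap was 20, 49 and 12 without control 1, 2 and 3 (13.8%, 20.6% and 13.3% of all genes), and 12, 13 and 63 without PP-MP 1, 2 and 3 (13.0%, 13.8% and 15.4% of all genes). Without PP-MP 1 the median over the subunit genes was −0.21 and 76 of the 84 fitted values were lower. With library totals the medians of the subunit genes and of all genes were −0.11 and 0.26. The distance between them was −0.37, against −0.36 with TMM. Scaling moves all genes of a library by the same factor, so this distance could hardly have changed.

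The 95% interval of a gene's log2 fold change did not reach 2-fold in either direction for 65 of the 84 genes (77.4%), against 46.3% of all genes tested. Its median reach to either side was 0.48, against 0.73 over all genes. Differences of more than 2-fold were thus outside the interval for most subunit genes, and smaller ones could go uncalled in a gene taken alone. This is not a limit of detection. In data simulated from all tested genes, 5.97% of genes set to 2-fold and 65.2% of those set to 4-fold passed the threshold.

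**Figure D2:**
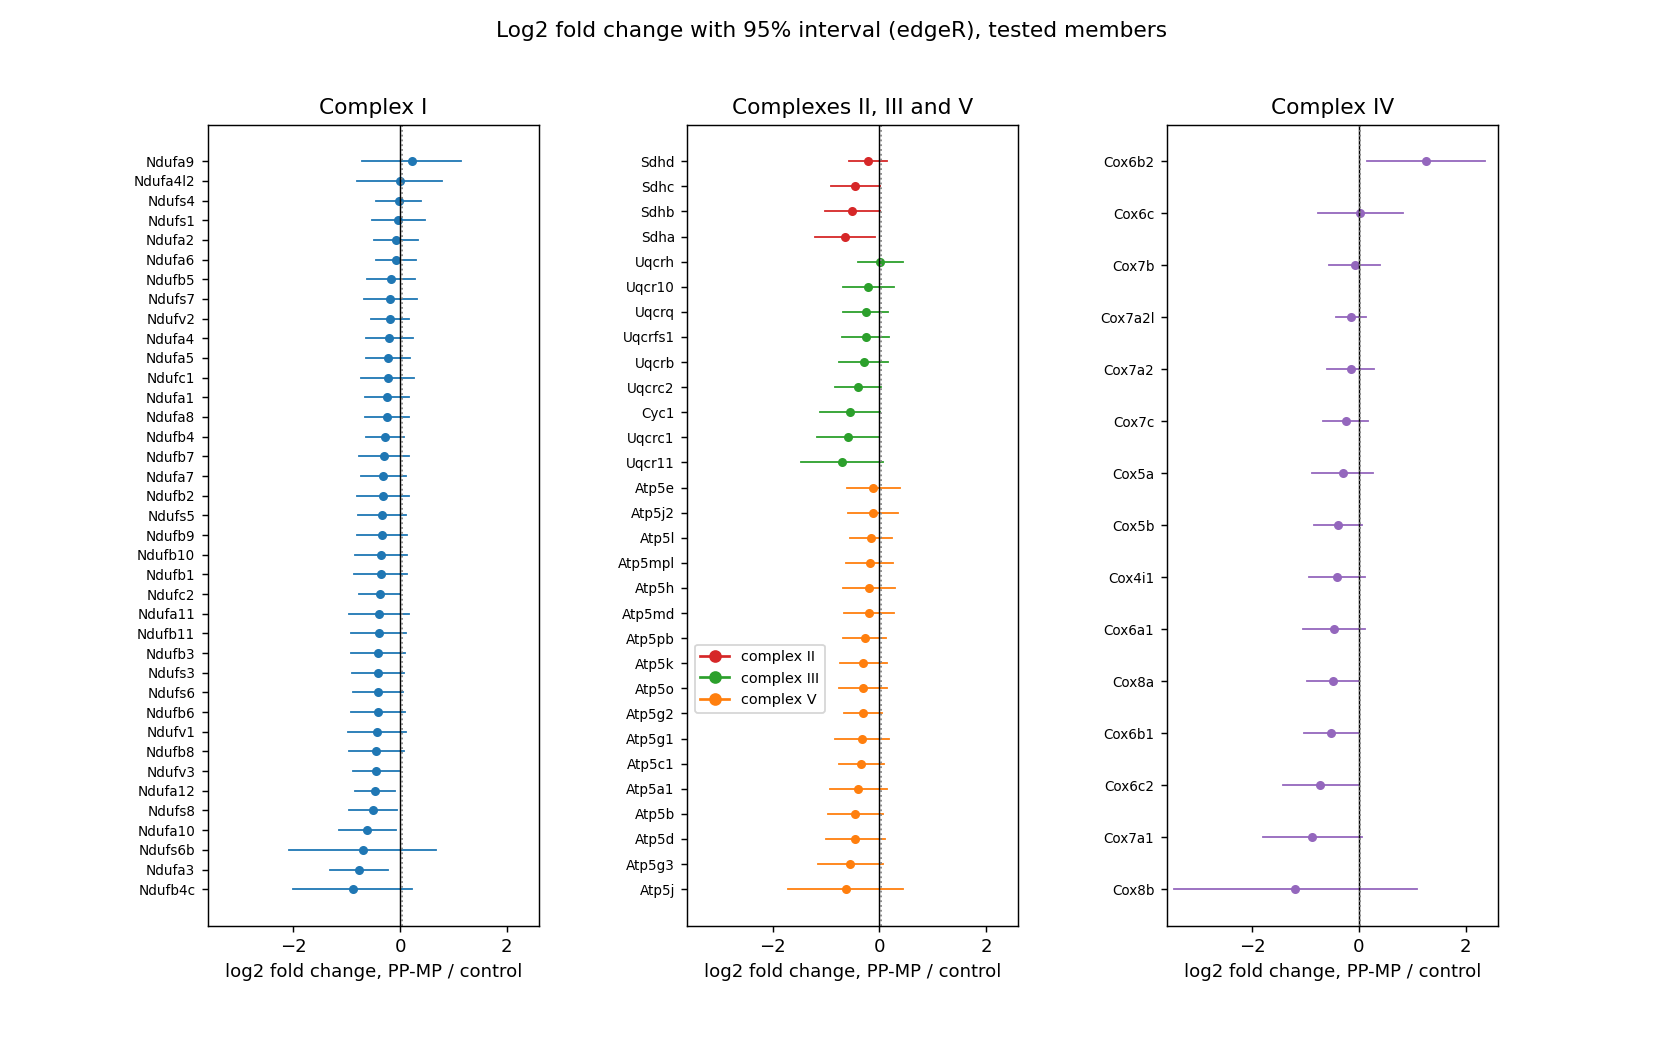
Log2 fold change of PP-MP relative to control with its 95% interval (edgeR, 3 libraries per group) for 83 of the 84 tested genes, by complex. The solid line is at 0 and the dotted line at the median of all genes tested, 0.03. Of the points 79 lie left of 0, and most intervals cross it. With library totals 59 of all 84 fitted values were lower, against 4667 of all 18284 genes. Cox6b2 at 1.27 and Cox8b at −1.19 lie farthest out.

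Promoter sequence was read for the subunit genes because nuclear respiratory factors are textbook regulators of this gene group. The RefSeq promoter table (GRCm38.p6, not the GRCm39 build of the counts) held 74 windows for 69 of the 91 genes, each from 250 bases before to 50 bases after an annotated start. The core letters of the NRF1 motif, GCGCN followed directly by TGCGC, searched on both strands, were in 18 of the 74 windows (24.3%), those of 17 genes, against 4.60% of all 32851 windows of that length. Members with them were 7 of 33 genes in complex I, 2 of 3 in complex II, 1 of 5 in complex III, 1 of 13 in complex IV and 6 of 15 in complex V. The 17 genes had a median log2 fold change of −0.31 and the 47 genes at 10 CPM or more with a window and no match one of −0.32. A match is a description of letters, not of a bound site.

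The sites below are shown because these genes carry more than 1 match or belong to the subunits described next, each 5′ to 3′ on the strand of the gene with the NRF1 letters in capitals. Sdha, whose window held 3 matches, is on the minus strand of chromosome 13 at chr13:74350319-74350348, chr13:74350276-74350305 and chr13:74350231-74350260. The first match lies in an exon of the neighbouring gene Ccdc127, the second in no annotated exon and the third in an exon of Sdha. Sdhd is at chr9:50603909-50603938 on the minus strand, where the match lies in an exon of Timm8b. Uqcrc1 is at chr9:108936643-108936672 and chr9:108936668-108936697 on the plus strand, both exonic, Atp5g3 at chr2:73911295-73911324 and Atp5g2 at chr15:102671070-102671099, both exonic on the minus strand.
Sdha, 98 bases before the start: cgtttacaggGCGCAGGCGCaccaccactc
Sdha, 55 bases before the start: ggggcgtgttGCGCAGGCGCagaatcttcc
Sdha, 10 bases before the start: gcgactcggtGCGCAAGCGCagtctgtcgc
Sdhd, 79 bases before the start: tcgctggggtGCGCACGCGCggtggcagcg
Uqcrc1, 5 bases after the start: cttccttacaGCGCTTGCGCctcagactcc
Uqcrc1, 30 bases after the start: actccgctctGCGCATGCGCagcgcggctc
Atp5g3, 12 bases after the start: gagccgcaccGCGCTTGCGCgcccagcccc
Atp5g2, 42 bases before the start: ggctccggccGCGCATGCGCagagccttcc

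Of 23 NRF1 matches in the 17 genes 18 began before the start, 3 lay in an exon of another gene and 4 genes had more than 1. A stretch outside exons that held a pair of matches was in front of Cox6a1, the liver-type subunit of complex IV, at chr5:115348982-115349129 on the minus strand. It is 148 bases long, ends 24 bases before the start and carries the NRF1 letters in capitals.
Cox6a1 upstream stretch: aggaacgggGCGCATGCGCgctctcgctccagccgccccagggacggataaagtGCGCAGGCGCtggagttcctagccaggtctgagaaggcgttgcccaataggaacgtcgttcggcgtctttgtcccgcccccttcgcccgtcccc

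The other motifs searched on both strands were rarer. CCGGAAGT, the core of GABP (also called NRF2 in this setting), was in 5 of the 74 windows (6.76%) against 3.89% of all windows, and CAAGGTCA, the letters of the oestrogen-related receptor ERR alpha, in 4 (5.41%) against 1.56%. AAGATGGC, the core of YY1, was in 10 windows (13.5%) against 2.75%. In 8 of these 10 genes it began 22 to 38 bases after the start. The letters include ATG, and whether these matches lie at the start of a coding sequence was not tested. The GABP letters (in capitals) are shown in front of Uqcr11, the complex III gene of lowest fitted log2 fold change, on the minus strand at chr10:80406831-80407071, a stretch of 241 bases outside exons that ends 10 bases before the start. The YY1 letters (in capitals) are shown for Ndufa3 at chr7:3617385-3617414 on the plus strand and Ndufa9 at chr6:126849096-126849125 on the minus strand, the complex I genes described next with low and high fitted values, both within their own exons.
Uqcr11 upstream stretch: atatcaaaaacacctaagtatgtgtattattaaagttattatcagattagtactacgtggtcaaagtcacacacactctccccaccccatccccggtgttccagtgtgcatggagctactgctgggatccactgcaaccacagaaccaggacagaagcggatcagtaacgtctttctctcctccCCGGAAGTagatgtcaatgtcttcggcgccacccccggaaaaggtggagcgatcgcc
Ndufa3, 22 bases after the start: cgccaagaacAAGATGGCcgggagtaagta
Ndufa9, 29 bases after the start: attgtgggagAAGATGGCggccgccgtccg

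Complex I, the NADH dehydrogenase, had 39 tested genes, 38 of them with a lower and 1 with a higher fitted value (28 lower with library totals), a median of −0.34 and 0 called. Its 7 nuclear core subunits, which carry the FMN, iron-sulphur and quinone sites, had a median log2 fold change of −0.40 and ranged from −0.50 (Ndufs8) to −0.04 (Ndufs1). The 16 genes of the matrix arm, core subunits included, had a median of −0.27, and the 19 accessory genes of the membrane arm one of −0.36.

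Ndufa3, an accessory subunit of the membrane arm, had the smallest p of the whole group. It was at 114, 83.8 and 117 CPM in controls 1, 2 and 3 and at 63.9, 75.0 and 45.8 CPM with PP-MP 1, 2 and 3. The groups did not overlap, and unlike most subunit genes the lowest library was PP-MP 3. Its log2 fold change was −0.77 (SE 0.23, edgeR adjusted p = 0.26), and its exons share 4 bases with Tfpt in the annotation used. Ndufa10, also of the membrane arm, was at 200, 142 and 213 CPM in the controls and 94.1, 131 and 137 CPM with PP-MP (log2 fold change −0.61, SE 0.22, edgeR adjusted p = 0.32). Ndufa12 of the matrix arm was at 55.8, 49.4 and 60.7 CPM in the controls and 34.3, 39.1 and 46.0 CPM with PP-MP (log2 fold change −0.47, SE 0.16, edgeR adjusted p = 0.30). In both genes PP-MP 1 was lowest and control 2 was the control library nearest to PP-MP.

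Ndufa9, an accessory subunit next to the quinone site, had the highest fitted log2 fold change of complex I, 0.22 (SE 0.39). The 3 control libraries read 66.4, 64.2 and 26.9 CPM and the PP-MP libraries 40.1, 71.7 and 71.2 CPM. Control 3, the highest library for most subunit genes, was the lowest here, and without it the log2 fold change was −0.08. Ndufb9, the complex I subunit gene of highest level per length after Ndufa4, was at 229 ± 17.9 CPM in the controls and 181 ± 41.3 CPM with PP-MP (SD, n = 3; log2 fold change −0.34). Ndufa4, which keeps a complex I name but is now counted as a complex IV subunit, was at 230, 253 and 277 CPM in the controls and 185, 209 and 268 CPM with PP-MP. Its groups overlapped, and the log2 fold change was −0.20 with TMM and 0.03 with library totals. Its paralogue Ndufa4l2, known as a hypoxia-induced gene, was at 1.28 ± 0.377 and 1.27 ± 0.310 CPM (SD, n = 3; log2 fold change −0.0082, with the sign turning under several settings).

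Copies named after complex I subunits were low, and reads of near-identical copies may have been split between them. Ndufb4c was at 7.95, 6.52 and 7.95 CPM in the controls and 2.42, 2.35 and 7.33 CPM with PP-MP, the lowest fitted log2 fold change of complex I at −0.89 (SE 0.47, edgeR adjusted p = 0.45). PP-MP 3 lay within the control range. Of the counts on Ndufb4 and Ndufb4c per length, Ndufb4c took 25.5%, 20.9% and 22.3% in the controls and 11.2%, 10.8% and 23.5% with PP-MP. Ndufb4 itself stood at 62.8 ± 5.77 CPM in the controls and 51.7 ± 6.60 CPM with PP-MP (SD, n = 3).

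Ndufa13, a membrane-arm subunit, had 0 counts in all 6 libraries, which allows up to 0.0287 to 0.0497 CPM per library when 3 counts are taken as the limit (counting error only). In the annotation used, its exons share bases with Tssk6, and how reads over overlapping genes were counted is not given in the sources used here. Ndufb11b had 0 counts and Ndufa11b 0 to 7 counts per library, and none of these 3 was tested. Ndufa13 is thus listed at 0 by this counting, with no value for its level in liver.

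Complex II, the succinate dehydrogenase that also belongs to the citric acid cycle, had the lowest median of the 5 complexes, −0.48, with 4 of 4 fitted values lower (3 of 4 with library totals) and 0 called. Sdha, the flavoprotein that oxidises succinate, was at 462, 367 and 494 CPM in the controls and 206, 346 and 294 CPM with PP-MP. Every PP-MP library was below every control library, with PP-MP 2 nearest to control 2. The log2 fold change was −0.64 (SE 0.23, 95% interval −1.20 to −0.09, edgeR adjusted p = 0.32). Sdhb, the iron-sulphur protein that passes the electrons on, was at 250, 180 and 250 CPM in the controls and 127, 161 and 190 CPM with PP-MP. PP-MP 3 was above control 2 here, and the log2 fold change was −0.51 (SE 0.21, edgeR adjusted p = 0.36).

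The membrane anchors, which bind coenzyme Q, differed in how far the groups lay apart. Sdhc was at 202, 155 and 191 CPM in the controls and 106, 145 and 150 CPM with PP-MP, without overlap (log2 fold change −0.45, SE 0.19, edgeR adjusted p = 0.36). Sdhd was at 154, 157 and 165 CPM in the controls and 119, 136 and 156 CPM with PP-MP, with PP-MP 3 inside the control range. Its log2 fold change was −0.21 (SE 0.15, edgeR adjusted p = 0.55) with TMM and 0.02 with library totals. Complex II was the complex in which PP-MP 3 stayed lowest, with a mean log2 CPM of −0.28 relative to control against −0.09 to −0.04 in the other complexes. That distance was not tested, since it rests on 4 genes of 1 library.

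Complex III, the cytochrome bc1 complex, had 8 lower and 1 higher fitted values of 9 (7 lower with library totals), a median of −0.29 and 0 called. The median log2 fold change was −0.48 over the 4 catalytic and core genes and −0.26 over the 5 small subunits, and the sets overlapped. Uqcrc1, core protein 1, was at 330, 230 and 309 CPM in the controls and 136, 217 and 223 CPM with PP-MP, without overlap but with PP-MP 2 and 3 close to control 2. Its log2 fold change was −0.59 (SE 0.25, edgeR adjusted p = 0.36). Cyc1, cytochrome c1, was at 229, 160 and 209 CPM in the controls and 98.1, 148 and 160 CPM with PP-MP, where PP-MP 3 and control 2 met (log2 fold change −0.56, SE 0.24, edgeR adjusted p = 0.36).

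Uqcrc2, core protein 2, was at 221 ± 19.0 CPM in the controls and 167 ± 30.7 CPM with PP-MP (SD, n = 3; log2 fold change −0.40), without overlap. The Rieske iron-sulphur protein gene Uqcrfs1 was at 168 ± 19.4 and 140 ± 25.9 CPM (SD, n = 3). Among the small subunits, Uqcr11 was at 181, 151 and 237 CPM in the controls and 68.8, 130 and 153 CPM with PP-MP. It had the lowest fitted log2 fold change of the complex, −0.70 (SE 0.32, edgeR adjusted p = 0.40), and its PP-MP libraries differed by 2.22-fold among themselves. Uqcrq, the gene of highest level per length of all 91, was at 353 ± 46.4 and 295 ± 44.6 CPM (SD, n = 3; log2 fold change −0.26). Uqcrh, the hinge protein, was the complex III gene with a higher fitted value, 0.02.

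Complex IV, cytochrome c oxidase, had 13 lower and 2 higher fitted values of 15 tested (10 lower with library totals), a median of −0.39 and 0 called. The 10 general subunits of liver had a median log2 fold change of −0.35 and a range from −0.53 (Cox6b1) to 0.03 (Cox6c). Cox6b1 was at 296, 226 and 319 CPM in the controls and 158, 189 and 237 CPM with PP-MP, with PP-MP 3 above control 2 (log2 fold change −0.53, SE 0.21, edgeR adjusted p = 0.35). Cox4i1, the largest nuclear subunit, was at 525, 401 and 498 CPM in the controls and 275, 357 and 438 CPM with PP-MP, and again PP-MP 3 lay inside the control range (log2 fold change −0.41, SE 0.22). Cox6a1, whose upstream stretch is printed above, was at 358, 249 and 373 CPM in the controls and 183, 232 and 297 CPM with PP-MP (log2 fold change −0.46, SE 0.24). Cox8a was at 202 ± 45.6 and 145 ± 18.2 CPM (SD, n = 3; log2 fold change −0.48). Cox7a2 had a log2 fold change of −0.15 with TMM and 0.07 with library totals.

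Cox7a2l, described as a factor that links complexes III and IV into supercomplexes, had a narrow spread. Whether its product does so in the inbred strain used was not tested. The gene was at 76.7, 75.3 and 84.0 CPM in the controls and 72.3, 66.7 and 73.6 CPM with PP-MP. The groups did not overlap, yet the log2 fold change was only −0.15 (SE 0.12, edgeR adjusted p = 0.60), and it was 0.08 with library totals. PP-MP 1, the lowest library for most subunit genes, was not the lowest for this gene.

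Isoforms known from heart, muscle or testis were at or near 0 in these livers, so their values rest on few counts. Cox6b2, the testis isoform, was the 1 subunit gene with an unadjusted p under 0.05 on the higher side. It had 10, 19 and 30 counts in control and 76, 34 and 68 in PP-MP, that is 0.138, 0.315 and 0.287 CPM against 0.753, 0.373 and 0.657 CPM. The log2 fold change was 1.27 (SE 0.46, edgeR adjusted p = 0.33), and the lowest PP-MP library lay just above the highest control library. Per length it made up 0.122% ± 0.0617 of Cox6b1 and Cox6b2 together in control and 0.420% ± 0.191 with PP-MP (SD, n = 3).

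The heart and muscle isoform Cox7a1 was at 1.41, 1.08 and 1.96 CPM in the controls and 0.495, 0.834 and 1.10 CPM with PP-MP, with PP-MP 3 just above control 2 (log2 fold change −0.87, SE 0.39, edgeR adjusted p = 0.39). Its share of Cox7a1 and Cox7a2 together per length was 2.05% ± 0.493 in the controls and 1.24% ± 0.246 with PP-MP (SD, n = 3). Cox8b, also of heart and muscle, was at 0.339 ± 0.252 and 0.151 ± 0.145 CPM (SD, n = 3; log2 fold change −1.19, SE 0.95). Of 6 muscle markers 5 were at 0 in all libraries and the sum was at most 0.0191 CPM, so muscle markers were at or near 0 in both diets. Cox7a1 and Cox8b are also expressed in brown fat. Of the 2 genes listed as its markers, Ucp1 was at 0 in all 6 libraries. The other, Cidea, is not read here as a sign of brown fat without Ucp1. Cidea was at 81.5, 13.4 and 65.7 CPM in the controls and 0.238, 28.9 and 1.16 CPM with PP-MP. Cox8b, with 2 to 64 counts per library, was also lowest in control 2 among the controls (0.289, 0.116 and 0.612 CPM). Among the PP-MP libraries it was also highest in PP-MP 2 (0.0198, 0.307 and 0.126 CPM). The highest control library was control 3 for Cox8b and control 1 for Cidea, and Cox7a1 was highest in PP-MP 3 among the PP-MP libraries. A relation of Cidea to the Cox8b values was not tested. Cox6c2, a copy of Cox6c by name, was at 0.717 ± 0.0929 and 0.434 ± 0.0560 CPM (SD, n = 3; log2 fold change −0.72, edgeR adjusted p = 0.36), without overlap under either scaling. Cox4i2 had 0 to 8 counts per library, Cox6a2 0 to 8, and Cox7b2 and Cox8c 0 in all 6, so these 4 were not tested.

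Complex V, the ATP synthase, had 17 of 17 fitted values lower (11 of 17 with library totals), a median of −0.30, a narrow range from −0.63 (Atp5j) to −0.12 (Atp5e) and 0 called. The 5 genes of the F1 head had a median log2 fold change of −0.40 and the 12 genes of the membrane part Fo and the stalk one of −0.29. Atp5b, the catalytic beta subunit, had the highest CPM of all 91 genes. It was at 1182, 868 and 1077 CPM in the controls and 585, 855 and 844 CPM with PP-MP, where PP-MP 2 and 3 lay just under control 2 (log2 fold change −0.45, SE 0.22, edgeR adjusted p = 0.41). Atp5a1, the alpha subunit, was at 822 ± 124 and 625 ± 135 CPM (SD, n = 3).

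The c subunit, whose ring turns with the proton flow, is made from 3 genes that encode the same mature protein. Atp5g3 was at 449, 319 and 446 CPM in the controls and 193, 310 and 328 CPM with PP-MP (log2 fold change −0.55, SE 0.25, edgeR adjusted p = 0.40). Atp5g1 and Atp5g2 stood at −0.33 (SE 0.21) and −0.31 (SE 0.15) on the log2 fold change scale. Per length Atp5g3 supplied 56.5% ± 0.687 of the c subunit level in control and 52.2% ± 4.44 with PP-MP, Atp5g1 22.7% ± 1.07 and 24.8% ± 1.32, and Atp5g2 20.8% ± 1.74 and 23.0% ± 3.36 (SD, n = 3). In PP-MP 1 the Atp5g3 share was 47.2%, against 55.7% and 53.7% in PP-MP 2 and 3. Its share in the 3 control libraries lay within 55.8% and 57.2%.

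Atpif1, the inhibitor of ATP hydrolysis by complex V, is not a subunit by the naming rule but belongs beside them. It was at 2.51, 9.29 and 11.0 CPM in the controls and 1.94, 2.26 and 1.16 CPM with PP-MP. The groups did not overlap, although control 1 was close to PP-MP 2, and the log2 fold change was −2.09 (SE 0.57, edgeR adjusted p = 0.24). Ndufab1, the acyl carrier protein of complex I, which the naming rule does not take in either, had a log2 fold change of −0.27.

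**Figure D3:**
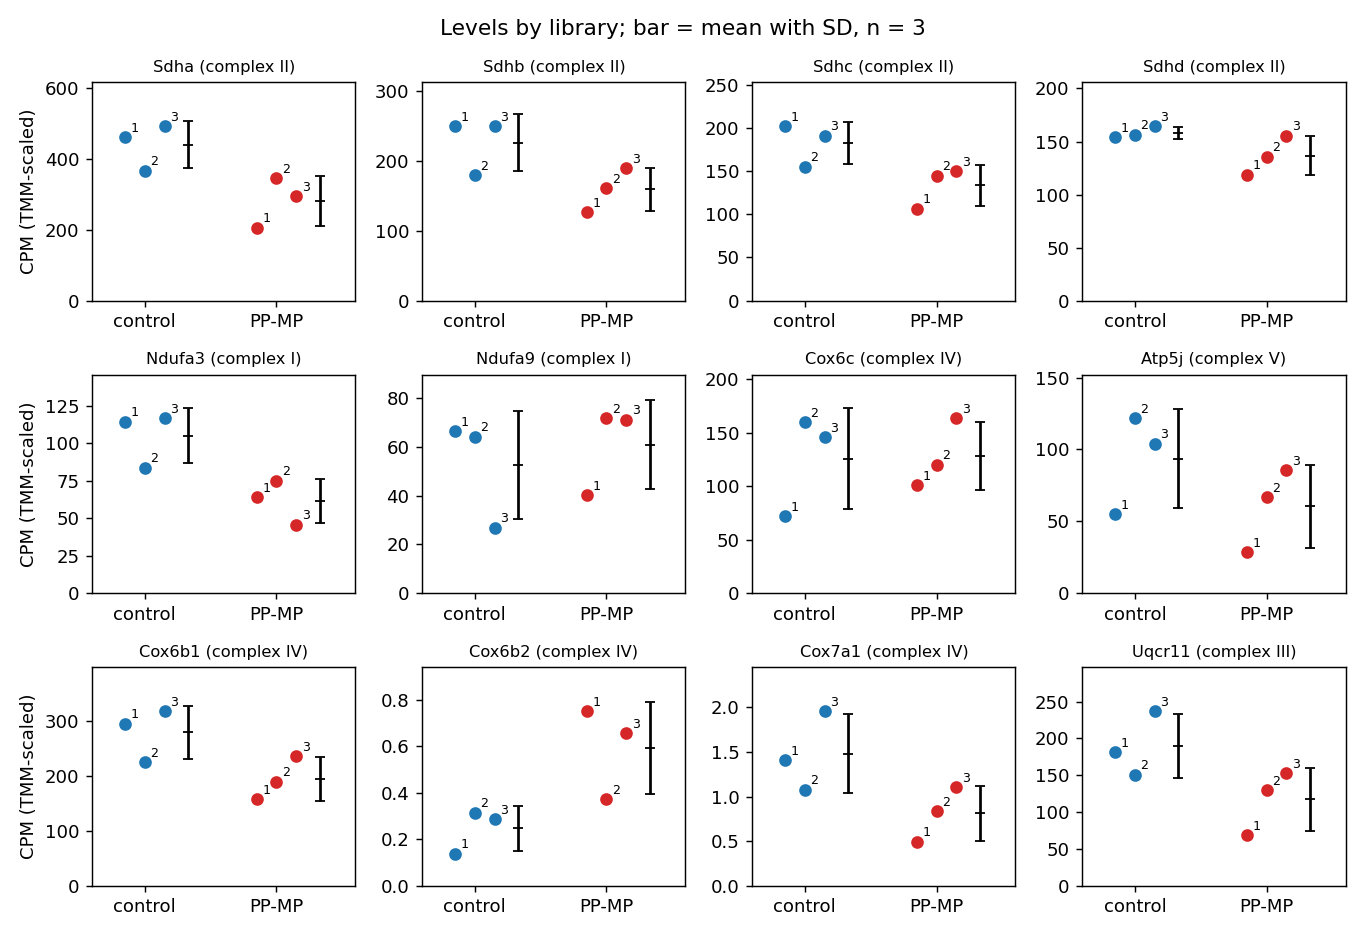
CPM (TMM-scaled) of 12 subunit genes in the 3 control and 3 PP-MP libraries, with library numbers beside the points and bars for the mean and SD. The first row shows complex II, where Sdha and Sdhc do not overlap between diets. Ndufa9, Cox6c and Atp5j each have 1 control library far from the others (26.9, 71.9 and 55.1 CPM), and Cox6b2 and Cox7a1 are the low isoforms.

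The ratio of the highest to the lowest library of a diet had a median of 1.30 in control and 1.48 in PP-MP over the 77 genes at 10 CPM or more, and it was over 2-fold within a diet for 4 of them, Ndufa9, Uqcr11, Cox6c and Atp5j. Cox6c, a small complex IV subunit, was at 71.9, 160 and 146 CPM in the controls and 101, 120 and 163 CPM with PP-MP, a log2 fold change of 0.03 (SE 0.33). Control 1 was its lowest library, which held for no other of the 77. Atp5j, the F6 subunit of the stalk, was at 55.1, 122 and 104 CPM in the controls and 28.5, 66.9 and 85.7 CPM with PP-MP (log2 fold change −0.63, SE 0.45, edgeR adjusted p = 0.56). Gabpa, whose exons share bases with Atp5j on the other strand, was at 13.2, 41.0 and 29.1 CPM in the controls and 35.8, 35.2 and 35.4 CPM with PP-MP. Control 1 was thus the lowest control library for both genes of that locus.

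**Figure D4:**
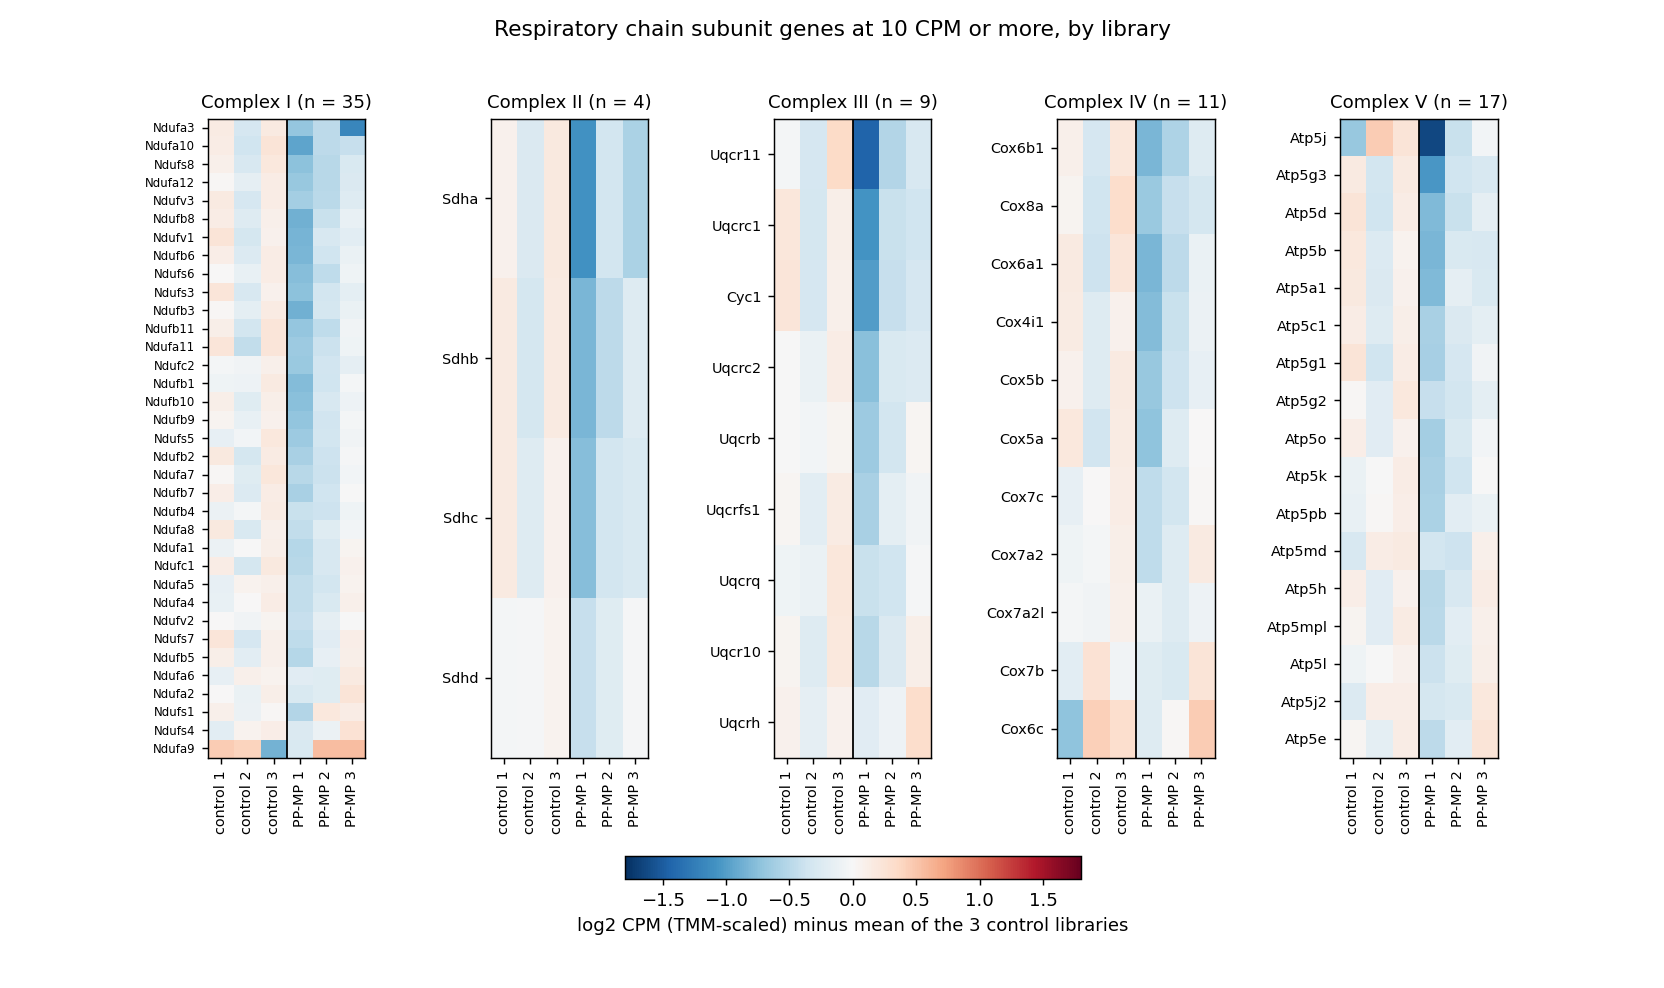
The plot shows 76 of the 77 subunit genes at a mean of 10 CPM or more (rows, by complex) in the 6 libraries (columns), coloured by log2 CPM (TMM-scaled) minus the mean of the 3 control libraries. PP-MP 1 is the bluest column in nearly every panel, being the lowest library for 69 of the 76 genes drawn, PP-MP 3 is close to control, and Ndufa9, Cox6c and Atp5j stand out with 1 control library far below the others.

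Levels differed far more between subunits than between diets. Per kilobase of transcript, the highest were Uqcrq at 800 ± 128 CPM per kb, Cox4i1 at 558 ± 124, Ndufa4 at 524 ± 78.6, Cox6a1 at 494 ± 131, Atp5g3 at 478 ± 134 and Atp5b at 471 ± 109 (SD over all 6 libraries). From Cox4i1 down, neighbours in this order lay within their spread. Ndufs1 was the lowest gene of complex I above 10 CPM, at 18.4 CPM per kb, and Ndufa4 was 28.5 times as high. The median per kb in control and PP-MP was 98.8 and 77.5 in complex I, 140 and 104 in complex II, 207 and 169 in complex III, 250 and 255 in complex IV, and 267 and 212 in complex V. The medians of complex IV lay close together, although 9 of its 10 general subunits had a lower fitted value with TMM. Subunit transcripts were short, with a median of 714 bases against 2396.5 over all genes tested. Across the 77 genes, Spearman's rho of log2 fold change with level was −0.29 and with length −0.23, and these points share the same 6 libraries.

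Of the other genes of the pathway, the lists held 13 mitochondrial-genome mRNAs, 52 assembly factors, 19 electron carriers and 16 regulators that were tested. In each list edgeR called 0, against 0.00547% of all genes lower and 0.00547% higher. DESeq2 called 3 lower, mt-Co1, Pet100 and Coq8a, against 1.29% of its genes lower and 1.92% higher. The 13 mRNAs of the mitochondrial genome had 12 lower and 1 higher fitted values and a median log2 fold change of −0.41. With library totals 8 of the 13 were lower, against 4667 of 18284 genes. PP-MP 2 was below PP-MP 1 for 12 of the 13, and it was the lowest of the 6 libraries for 10. The exception was mt-Nd4, a complex I core subunit, at 392, 1121 and 580 CPM in the controls and 0.159, 47.9 and 150 CPM with PP-MP (log2 fold change −3.40, SE 1.67, edgeR adjusted p = 0.42). In the same libraries mt-Nd4l was at 13948, 14510 and 13911 CPM in control and 12950, 8313 and 9833 CPM with PP-MP. Whether the low mt-Nd4 values, in either diet, reflect transcript level or read assignment was not tested. Relative to the control mean, the mean log2 CPM of the 13 was −0.97 for PP-MP 1, −0.86 for PP-MP 2 and −0.40 for PP-MP 3. Without mt-Nd4, left out after its values were seen, it was −0.07, −0.62 and −0.26, so PP-MP 1 then lay within the control libraries, at −0.13 to 0.12, and PP-MP 2 lowest. For mt-Co1, the catalytic subunit of complex IV, the log2 fold change was −0.69 (SE 0.21), with an adjusted p of 0.27 by edgeR and 0.021 by DESeq2. Of 52 tested assembly factors, which build the complexes but do not stay in them, 43 were lower and 9 higher with a median of −0.19. Over all genes 47.4% were lower with a median of 0.03. With library totals 22 of the 52 were lower and the median was 0.03, against 4667 of 18284 genes and a median of 0.26. For complex I factors (17 tested) the median was −0.25, with Dmac1 at −0.45 and Acad9 at −0.53, and for complex IV factors (22 tested) −0.19.

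Pet100, a chaperone of complex IV, was at 19.4, 23.6 and 24.4 CPM in the controls and 13.4, 11.7 and 15.6 CPM with PP-MP, without overlap (log2 fold change −0.72, SE 0.17, adjusted p = 0.21 by edgeR and 0.033 by DESeq2). Sco1, which delivers copper to complex IV, had a log2 fold change of −0.44. The list of electron carriers holds coenzyme Q synthesis genes, cytochrome c, the electron transfer flavoprotein genes and the dehydrogenase genes Etfdh, Dhodh and Gpd2. Of its 19 genes 15 were lower and 4 higher with a median of −0.24. With library totals 10 of the 19 were lower and the median was −0.02, against 4667 of 18284 genes and a median of 0.26. Coq8a, an atypical kinase of coenzyme Q synthesis, was at 425, 297 and 333 CPM in the controls and 178, 207 and 206 CPM with PP-MP, so that the lowest control library was well above the highest PP-MP library. Its log2 fold change was −0.84 (SE 0.18, adjusted p = 0.21 by edgeR and 0.0073 by DESeq2). Coq7 and Coq5 had −0.46 and −0.44, and somatic cytochrome c, Cycs, −0.03.

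The regulators of mitochondrial biogenesis had 7 lower and 9 higher fitted values of 16, which is 43.8% lower against 47.4% of all genes tested. Their median was 0.07. With library totals 1 of the 16 was lower and the median was 0.30, against 4667 of 18284 genes and a median of 0.26. Nrf1, which gives the motif above its name, had a log2 fold change of −0.10 (SE 0.21), Gabpa 0.36 (SE 0.37), Esrra 0.01 (SE 0.15) and Tfam, the packaging and transcription factor of mitochondrial DNA, −0.03 (SE 0.17). Ppargc1a, the coactivator PGC-1 alpha, was at 4.23 to 9.04 CPM in the controls and at 14.9, 8.73 and 8.81 CPM with PP-MP. PP-MP 1 was highest and the groups overlapped (log2 fold change 0.68, SE 0.34, edgeR adjusted p = 0.43). Tfb1m and Mterf1a, also of this list, had log2 fold changes of 0.37 and 0.78 without overlap (edgeR adjusted p = 0.36 and 0.34).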

How the data were processed

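The authors deposited raw read counts per gene, 1 column per library, and the 6 per-sample files held the same counts. Per the labels' protocols, libraries were directional and made from poly(A) RNA. Per the submitters' processing notes, bcl2fastq was used and the build was GRCm39. Aligner, counter, strand setting and annotation: not given in the sources used here. Genes were filtered by group (filterByExpr), TMM-scaled and tested with edgeR 4.0.16 (robust quasi-likelihood F test, two-sided, R 4.3.3), with Benjamini-Hochberg adjustment over 18284 genes at a threshold of 0.05. Log2 CPM used a prior count of 2. Alternatives used DESeq2 1.42.0 and limma 3.58.1. Lengths and exon overlaps came from GENCODE M21 (90 of 91 genes matched). The 67 symbols on more than 1 row were kept row by row. On simulated data (17822 genes), it recovered 0% of 67 genes set to 1.5-fold, 5.97% of 67 set to 2-fold and 65.2% of 66 set to 4-fold, with 3 false calls.

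Members and gene lists were chosen with earlier results of these data known, so no test was made over a list. Named genes are, per complex, the 3 of smallest p and the 2 of highest level per length, the 2 of largest log2 fold change in each direction, complex II, the isoform pairs, and the 3 of smallest p per pathway list with 6 regulators and carriers. Other genes named were chosen after their values were seen. Isoform shares compare CPM per length. Counts and medians include 1 gene that is not reported here.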

Additional observations from a re-analysis of the deposited data

How the results depend on the processing

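In each of the settings run, 0 subunit genes were called (smallest adjusted p 0.10 with DESeq2 to 0.56 without control 3). Without control 2, where edgeR called 0.301% of 19277 genes lower and 0.176% higher, the count was also 0. The median over all subunit genes ranged from −0.48 (without PP-MP 3) to −0.21 (without PP-MP 1) when 1 library was left out, and was −0.29 without control 2 and PP-MP 1 together and −0.29 with the length trend removed. Without PP-MP 1 the medians of complexes I to V were −0.22, −0.34, −0.19, −0.26 and −0.17, and with library totals in place of TMM −0.11, −0.26, −0.07, −0.17 and −0.08. The count at an unadjusted p under 0.05, 9 lower, was 0 with library totals, 15 with limma-voom, 14 with DESeq2 size factors, 12 with DESeq2 and 28 without control 2 and PP-MP 1. The share of all genes at this level is not given here for these settings, so these counts have no background. With library totals 21 of the 84 fitted values turned from lower to higher, among the named genes Ndufa4 (0.031), Sdhd (0.016), Cox7a2 (0.074), Cox7a2l (0.081) and Ndufa4l2 (0.22). Ndufa9 ranged from −0.080 (without control 3) to 0.45 (without PP-MP 1) with 1 library left out, and was 0.62 without control 2 and PP-MP 1. Ndufa4l2 also turned with the length trend removed (0.031), a mean CPM of at least 1 (0.033), no filter (0.032), without mitochondrial genome and haemoglobin genes (0.018), without ribosomal RNA genes (0.0012) and in 4 of 6 fits with 1 library left out (−0.22 to 0.21 over the 6), and was −0.43 without control 2 and PP-MP 1. Same-numbered libraries had correlations of −0.0662, −0.0872 and 0.0470, which gives no sign of pairing, and with a replicate block the median was −0.33, 0 genes were called (smallest adjusted p = 0.46), and Ndufa4l2 was 0.012. Depth limits the low isoforms: Cox6b2 rests on 10 to 76 counts per library.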
